A study of Mus musculus with 14 samples.

Results

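Thymic lymphomas of mice with an altered Hif1a genotype were compared with those of mice with intact Hif1a, across all genes, with both altered genotypes pooled. The tumours were chosen by title: 9 of the 14 in the series are HIF1a+/- (5 tumours) or HIF1aKI/+ (4 tumours), and the other 5 are HIF1a+/+. Every mouse, in each of the 3 genotypes, was p53R270H/R270H, so a mutant p53 was shared by all groups, and the strain was mixed (C57BL/6-129/SvEvTac). Animals were aged until respiratory distress appeared, and the lymphoma was then kept in RNAlater. The labels do not give age, sex or what the knock-in (KI) allele carries, and they name no batch. The series was made to look for expression differences that might go with differences in tumour onset and incidence between the genotypes.

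The HIF-1 transcription factor pairs the Hif1a product, which is destroyed when oxygen is plentiful and accumulates when it is scarce, with a constant partner. HIF-1 binds a short core sequence in its target genes, which include glycolytic enzymes, glucose transporters and the angiogenic factor Vegfa. A thymic lymphoma is a tumour of developing T cells, and a bulk sample of it can also hold macrophages, fibroblasts, vessels, fat and remaining thymic epithelium.

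Each tumour was measured on 1 Affymetrix array. The values are log2 summaries per probe set, so a difference of 1 is a 2-fold change, and 10254 genes were measured, each by its probe set of highest mean. Values below 4.84, the lowest point between the background mode and the main mode of the gene means, were read as background, and 30.1% of the genes had a mean below it. The size of a difference is uncertain where 1 of the group means lies in that range. Array medians ran from 7.91 to 8.03, and pairs of arrays correlated at 0.942 to 0.976 over genes. The T cell label held, with altered-tumour means of 12.8 for Cd3e, 12.8 for Cd3g and 14.2 for Thy1. Xist, which is expressed from the inactive X chromosome of females, was above 10 in 2 of 9 altered and 2 of 5 HIF1a+/+ tumours. With 1 value per tumour, precision is set by how many tumours there are.

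Hif1a itself was examined first. Its brightest probe set averaged 12.31 ± 0.35 in altered tumours (SD, n = 9) and 12.68 ± 0.26 in HIF1a+/+ tumours (SD, n = 5). The HIF1a+/- tumours read 12.54, 12.24, 12.47, 12.82 and 12.68, the HIF1aKI/+ tumours 12.25, 12.14, 11.94 and 11.75, and the HIF1a+/+ tumours 12.60, 13.04, 12.45, 12.44 and 12.85. All 4 HIF1aKI/+ tumours lay below every HIF1a+/+ tumour, whereas the HIF1a+/- tumours overlapped them. The pooled difference of -0.36 gave p = 0.0694 in a two-sided exact permutation test over all 2002 assignments of 9 and 5 arrays. Per genotype it was -0.13 in HIF1a+/- and -0.66 in HIF1aKI/+ tumours. Of the other 3 probe sets, the next brightest differed by -0.31 (exact permutation p = 0.396) and the one after it by -0.87 (exact permutation p = 0.151), and the dimmest lay at background in all groups. With the mean of the genotype means in place of the pooled group, the brightest gave -0.39 and the one at -0.87 gave -0.97. In limma both reached an unadjusted p of 0.05 in that contrast. That contrast was not tested by permutation, so its result cannot be set beside the exact p values. Where the probe sets lie relative to the altered alleles was not tested. In the list of HIF subunits and oxygen sensors, Hif1a included, 5 of 11 measured genes were higher and 6 lower (median -0.06), and in limma 0 reached an unadjusted p of 0.05, or up to 1 with an array left out.

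Across all genes, limma was used to test the 9 altered against the 5 HIF1a+/+ tumours, with p adjusted by the Benjamini-Hochberg method over 10254 genes and a threshold of 0.05. A gene was counted only if its HIF1a+/- and HIF1aKI/+ means lay on the same side of the HIF1a+/+ mean. By this rule 1 gene was lower (0.00975% of all genes) and 0 were higher (0%). At an unadjusted p under 0.05, 455 genes were higher (4.44%) and 364 lower (3.55%), which together is 819 (7.99%), where 512.7 would be expected with no difference. Centring each array on its median turned that split to 345 higher and 529 lower. The 2 altered genotypes share the same 5 HIF1a+/+ tumours, so their differences from them are not independent. The pooled difference was above 0 for 47.7% of genes. The 2 genotypes had the same sign for 7596 genes (74.1%), of which 3486 were higher (34%) and 4110 lower (40.1%). Tested apart in limma, HIF1a+/- tumours gave 2 genes past adjusted p of 0.05 (0.0195%) and HIF1aKI/+ tumours 0 (0%). Between HIF1a+/- and HIF1aKI/+ tumours 0 genes passed adjusted p of 0.05 in limma, and 314 (3.06%) had an unadjusted p under 0.05.

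The gene that passed was Stab1, which encodes stabilin-1, a scavenger receptor of macrophages and sinusoidal endothelium. Its values were 7.61, 7.53, 7.62, 7.82 and 8.09 in HIF1a+/- tumours and 7.61, 8.0004, 7.80 and 8.24 in HIF1aKI/+ tumours, against 9.22, 8.60, 8.70, 9.24 and 9.30 in HIF1a+/+ tumours. No altered tumour reached the lowest HIF1a+/+ tumour, and the genotypes overlapped each other. Stab1 fell by 1.20 on the log2 scale, 2.29-fold (SE 0.15 of the log2 difference, limma adjusted p = 0.0314), to 7.81 ± 0.25 in altered tumours (SD, n = 9), against 9.01 ± 0.33 in HIF1a+/+ tumours (SD, n = 5). The difference was -1.28 in HIF1a+/- and -1.10 in HIF1aKI/+ tumours. It stayed past the threshold in 6 of 14 fits that each left out 1 array, with differences of -1.30 to -1.13 and adjusted p of 0.0192 to 0.113. The call was lost without any 1 of HIF1a+/- replicates 1, 2 and 3, HIF1aKI/+ replicates 1, 3 and 4 and HIF1a+/+ replicates 1 and 4. It was also lost with the mean of the genotype means (adjusted p = 0.0600) and with array weights (adjusted p = 0.0596).

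**Figure D1:**
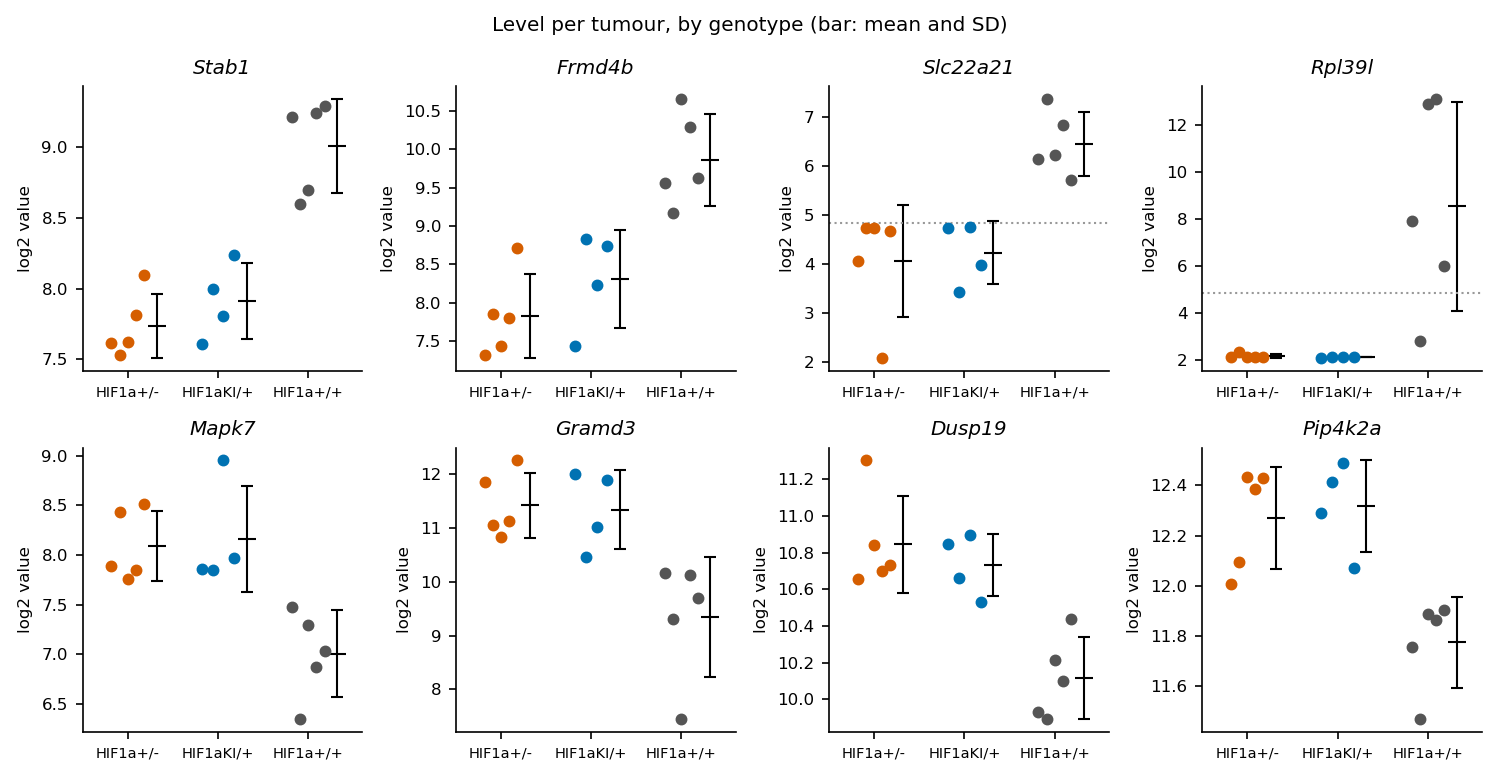
Log2 value of 8 genes in each tumour by genotype (points), with the mean and SD of each genotype (bars) and the background boundary of 4.84 as a dotted line where it falls in the panel. In each panel all 9 altered tumours lie on one side of the 5 HIF1a+/+ tumours, and for Rpl39l the HIF1a+/+ tumours spread from 2.82 to 13.1.

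By rule, 12 genes in each direction were named: Stab1, and then those with the smallest unadjusted p among genes with the same sign in both genotypes, a difference of at least 1 and a mean above background in at least 1 group. Apart from Stab1 none passed the threshold, with adjusted p from 0.251 to 0.471. Under the alternative settings and with each array left out, the 24 genes gave 546 values, and none changed sign. Genes chosen for a small p and a difference of at least 1 leave little room for such a change. The HIF1a+/- and HIF1aKI/+ differences of each are drawn side by side in the plot of differences by genotype.

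**Figure D2:**
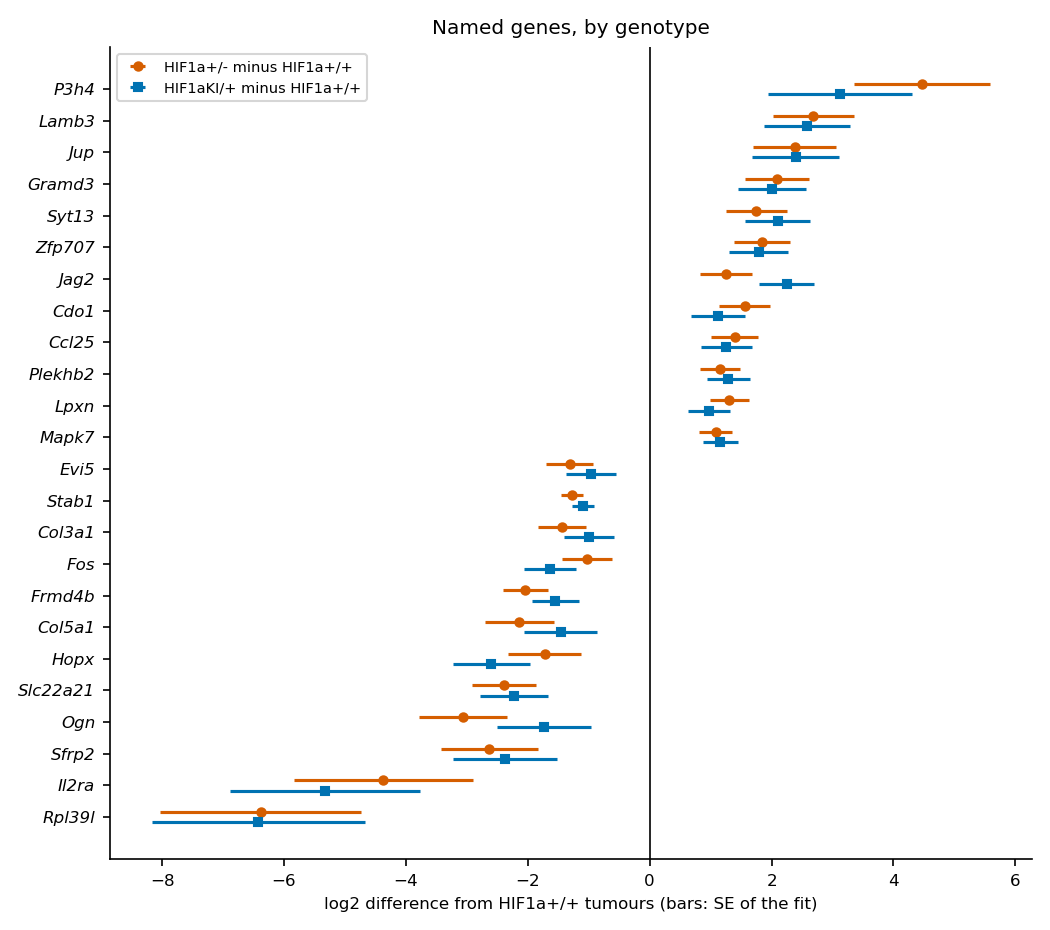
Log2 difference from the HIF1a+/+ tumours of the 24 named genes, for HIF1a+/- (circles) and HIF1aKI/+ tumours (squares), with bars for the SE of the fit. Each gene lies on the same side of 0 in both genotypes, as the rule requires, and the widest gap between genotypes beside its SE is that of Jag2, at 1.25 in HIF1a+/- and 2.25 in HIF1aKI/+ tumours.

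The promoters of 3 of these genes are printed here, the gene that passed and 1 non-overlapping gene of each direction, because HIF-1 acts on promoters through its core sequence. Promoters of 300 bases, from 250 before to 50 after the transcription start, are from RefSeq on GRCm38.p6 and are written 5′ to 3′ on the strand of the gene. The motifs ACGTG and GCGTG were searched on both strands, and each match is in capitals. Stab1 at chr14:31168592-31168891 (minus strand) held no match, Rpl39l at chr16:10169978-10170277 (plus strand) held 1, and Mapk7 at chr11:61494212-61494511 (minus strand) held 4.
Stab1: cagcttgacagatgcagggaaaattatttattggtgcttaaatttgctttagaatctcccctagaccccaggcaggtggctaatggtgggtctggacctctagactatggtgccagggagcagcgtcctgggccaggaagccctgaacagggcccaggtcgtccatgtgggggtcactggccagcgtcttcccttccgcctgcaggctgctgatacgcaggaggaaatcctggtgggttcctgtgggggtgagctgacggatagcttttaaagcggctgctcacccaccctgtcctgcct
Rpl39l: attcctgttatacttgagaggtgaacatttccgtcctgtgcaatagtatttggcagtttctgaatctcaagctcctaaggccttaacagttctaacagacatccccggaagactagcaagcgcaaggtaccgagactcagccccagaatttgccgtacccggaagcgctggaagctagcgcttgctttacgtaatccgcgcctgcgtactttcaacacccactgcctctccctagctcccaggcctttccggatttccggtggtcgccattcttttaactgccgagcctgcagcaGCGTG
Mapk7: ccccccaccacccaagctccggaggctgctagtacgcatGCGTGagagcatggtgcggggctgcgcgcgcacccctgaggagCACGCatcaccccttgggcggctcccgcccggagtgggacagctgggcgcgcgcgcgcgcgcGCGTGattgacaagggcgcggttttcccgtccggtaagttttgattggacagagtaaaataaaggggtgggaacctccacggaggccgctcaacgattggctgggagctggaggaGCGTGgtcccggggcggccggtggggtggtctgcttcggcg

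A match was present in 13 of the 18 named genes with a promoter in the table (72.2%). The share was 5427 of 8248 among measured genes (65.8%) and 14380 of 32851 among all promoters of the same length (43.8%). The share among the named genes is thus near that of measured genes, and a match does not show that HIF-1 binds there.

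On the low side, Frmd4b, which encodes a FERM-domain scaffold protein, lay between 7.32 and 8.83 in altered tumours (median 7.85) and between 9.17 and 10.66 in HIF1a+/+ tumours. The groups did not overlap, and the difference was -1.82 ± 0.33 (SE, limma adjusted p = 0.251). It is measured by 4 probe sets, and with their mean in place of the brightest the difference was -1.39 and the adjusted p 0.0240. Slc22a21, a carnitine transporter, lay between 2.09 and 4.76 in altered tumours, all at background, and read 6.14, 7.38, 6.22, 6.84 and 5.73 in HIF1a+/+ tumours. Its difference was -2.32 ± 0.45 (SE, adjusted p = 0.352).

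Rpl39l encodes a paralogue of the ribosomal protein Rpl39 and is known for its expression in testis. It lay at background in all 9 altered tumours, at 2.10 to 2.32, and read 7.90, 2.82, 12.90, 13.12 and 5.99 in HIF1a+/+ tumours. The HIF1a+/+ tumours differed widely among themselves, and replicate 2 of them was also at background, although above every altered tumour. The difference was -6.40 ± 1.39 (SE, adjusted p = 0.376), and reaction of the probes with Rpl39 transcripts was not tested. Il2ra, the alpha chain of the interleukin-2 receptor and a marker of early thymocytes, had the same kind of spread. It read 6.29, 2.12, 3.00, 3.24 and 2.13 in HIF1a+/- and 2.13, 2.15, 2.13 and 3.22 in HIF1aKI/+ tumours, against 6.90, 8.26, 11.42, 9.93 and 2.14 in HIF1a+/+ tumours. In 1 HIF1a+/- tumour Il2ra was above background and in 1 HIF1a+/+ tumour it was at background. Leaving out that HIF1a+/+ tumour, replicate 5, can only widen the gap. The difference of -4.79 then became -6.19 with a limma adjusted p of 0.0362. In the other 13 fits that left out 1 array Il2ra did not pass. The smallest difference over the fits was -3.87 and the highest adjusted p 0.682.

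Of the other 7 genes named on the low side, 4 encode secreted or matrix proteins. These are Sfrp2, a secreted Wnt antagonist (-2.51), Ogn, a small leucine-rich proteoglycan (-2.47), and the fibrillar collagen genes Col5a1 (-1.84) and Col3a1 (-1.25). The altered mean of Sfrp2 was at background (2.36), and its HIF1a+/+ mean of 4.88 lay just above the boundary. Hopx, a homeodomain protein that does not bind DNA, differed by -2.11, with altered tumours at 1.85 to 4.73 and HIF1a+/+ tumours at 4.94 to 6.81. With probe sets averaged per gene the differences were smaller for Ogn (-1.24), Col5a1 (-1.15) and Hopx (-1.11). Each of these averages takes in a probe set at background in both groups, which draws it toward 0. The same holds for the averages given for Frmd4b, Jag2, Eif3h, Vegfa, Igf1r and Aen. The other Col5a1 probe set above background differed by -1.57. Fos, a subunit of the AP-1 factor, differed by -1.30 and Evi5, a regulator of Rab GTPases, by -1.16.

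Among the 12 genes named on the high side, which all differ by at least 1, Mapk7, the kinase ERK5, had the smallest p. It read 7.89, 8.44, 7.76, 7.85 and 8.51 in HIF1a+/- and 7.86, 7.85, 8.95 and 7.97 in HIF1aKI/+ tumours, against 7.48, 6.34, 7.30, 6.87 and 7.04 in HIF1a+/+ tumours. Every altered tumour was above every HIF1a+/+ tumour, and the difference was 1.12 ± 0.23 (SE, adjusted p = 0.376). Gramd3, a GRAM-domain protein, also did not overlap, at 10.46 to 12.26 in altered and 7.44 to 10.16 in HIF1a+/+ tumours (difference 2.05). Of the other named genes, Lamb3, the beta chain of laminin-332 (2.64), and Jup, the junction protein plakoglobin (2.39), are known from epithelia, and Ccl25 (1.33) is the thymic epithelial chemokine that draws in T cell precursors. P3h4, a partner of collagen-modifying enzymes, differed by 3.87, although HIF1a+/+ replicate 5 reached 10.12 and lay among the altered tumours. Jag2, a Notch ligand, differed by 1.69, or 1.02 with probe sets averaged, and was at background in the HIF1a+/+ tumours (3.05 to 3.60). The other 5 were Zfp707, a zinc finger protein (1.82), Syt13, a synaptotagmin (1.91), Plekhb2, an endosomal protein (1.22), Cdo1, cysteine dioxygenase (1.36), and Lpxn, an adhesion adaptor (1.16). The HIF1a+/+ means of Lamb3 (3.13) and Zfp707 (3.86) also lay at background.

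In 30 genes (0.293%) no altered tumour overlapped any HIF1a+/+ tumour, 15 of them lower (0.146%) and 15 higher (0.146%). The 15 higher genes were all above background and had mostly small differences, from 0.19 for Eif3h, a subunit of an initiation factor (0.061 with probe sets averaged), to 2.05 for Gramd3. Among them, Dusp19, a phosphatase, differed by 0.68 ± 0.12 (SE, adjusted p = 0.251). It lay at 10.53 to 11.30 in altered and 9.89 to 10.44 in HIF1a+/+ tumours. Pip4k2a, a phosphoinositide kinase, differed by 0.52 ± 0.10 (SE, adjusted p = 0.352), at 12.01 to 12.49 in altered and 11.47 to 11.90 in HIF1a+/+ tumours. The other 11 higher genes were Gps2 and Gps1, subunits of the NCoR corepressor and the COP9 signalosome, Retreg2, Mlx, a partner of glucose-sensing factors, Cant1, Stat5b, a cytokine-activated factor, Znrf1, Hspb11, Ciao2b, an iron-sulfur assembly factor, Spice1 and Mapk7. Eif3h, Dusp19, Pip4k2a and Gramd3 complete the 15.

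Of the 15 lower genes, 6 had both group means at background, namely Svep1, Vsig4, Gm20362, Olr1, Apobec2 and Acot4, with 2 of their HIF1a+/+ values above the boundary, Vsig4 at 5.88 and Gm20362 at 4.854, both in replicate 2. Without that tumour Vsig4 differed by -0.51 and Gm20362 by -0.32, against -1.17 and -0.75 with it. The remaining 9 are Stab1, Frmd4b, Slc22a21, Rpl39l, Hopx and Col5a1 together with Gusb, Grsf1 and Dhx15. Gusb, the lysosomal beta-glucuronidase, lay at 10.06 to 10.98 in altered and 10.99 to 11.19 in HIF1a+/+ tumours (difference -0.48). Grsf1, a mitochondrial RNA-binding protein, differed by -0.39. Dhx15, a helicase that takes spliceosomes apart, differed by -0.22 (limma adjusted p = 0.458), with -0.30 in HIF1a+/- and -0.11 in HIF1aKI/+ tumours. The gap of Dhx15 between the altered genotypes had an unadjusted limma p of 0.00093 and that of Hspb11 of 0.0066, and neither passed after adjustment over all genes.

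**Figure D3:**
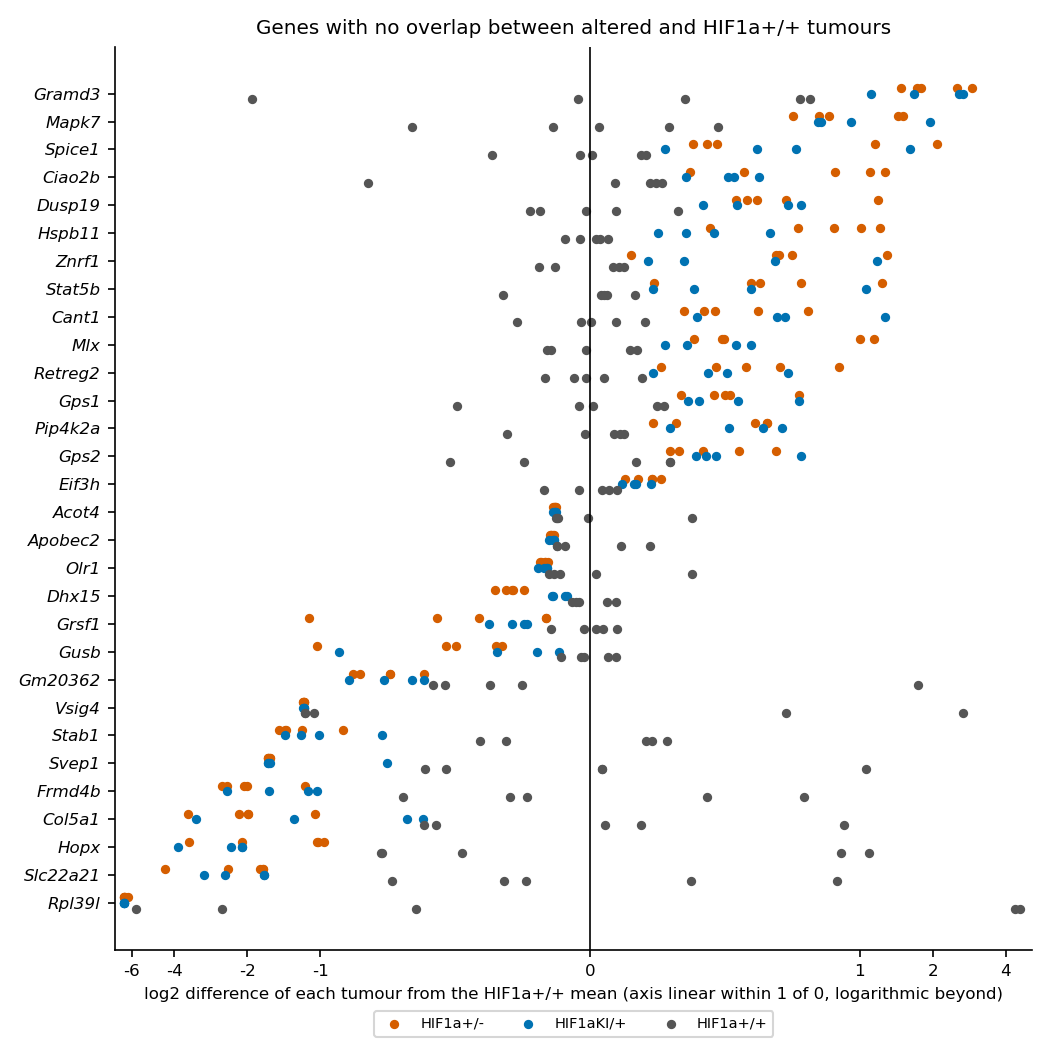
Log2 difference of each tumour from the HIF1a+/+ mean for the 30 genes whose altered and HIF1a+/+ tumours do not overlap, on an axis that is linear within 1 of 0 and logarithmic beyond. The 9 altered tumours lie right of all HIF1a+/+ tumours in the 15 upper rows and left of them in the 15 lower rows, and the spread of the HIF1a+/+ tumours is widest for Rpl39l.

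The same 30 genes were then placed on chromosomes by the RefSeq table for GRCm38.p6, a comparison chosen after these genes had been seen. Of the 15 higher genes, 6 lie on chromosome 11 (Cant1, Gps1, Gps2, Mapk7, Mlx and Stat5b), which holds 8.55% of the measured genes. Of the 15 lower genes, 4 lie on chromosome 5 (Dhx15, Grsf1, Gusb and Hopx), which holds 6.43%. Over all measured genes of chromosome 11, 134 of 875 (15.3%) were higher at an unadjusted p under 0.05, against 4.44% of all genes, and 13 were lower. On chromosome 5 it was the other way, with 74 of 658 genes (11.2%) lower, against 3.55% of all genes, and 5 higher. These counts ranged from 96 to 146 and from 56 to 89 when each array was left out. With arrays centred on their medians they were 106 and 106, and the chromosome 5 count was 47 of 463 among genes above background.

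The shift was small. The median difference of chromosome 11 genes above background from the HIF1a+/+ mean was 0.08, 0.21, 0.16, 0.24 and 0.38 in HIF1a+/- and 0.16, 0.18, 0.45 and 0.07 in HIF1aKI/+ tumours, against -0.00066, -0.13, 0.10, 0.01 and 0.06 in HIF1a+/+ tumours. The altered tumours were mostly the higher, with overlap at the lower end. The difference in means was 0.21 with a two-sided permutation p of 0.00649, and an adjusted p of 0.13 over 20 chromosomes. For chromosome 5 the difference was -0.16, with a permutation p of 0.0530 and an adjusted p of 0.53. Genes were centred once on their HIF1a+/+ mean, and not anew in each assignment of the arrays. The permutation p values for chromosomes are therefore not exact. The comparison was prompted by genes picked from these same tumours, so these p values are not an independent check. DNA copy number was not analysed here. Around Hif1a itself, on chromosome 12, of the 50 nearest measured genes 0 had groups without overlap, against 0.293% of all genes, and 4 (8%) had an unadjusted p under 0.05, against 7.99% of all genes. These shares are near the background.

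**Figure D4:**
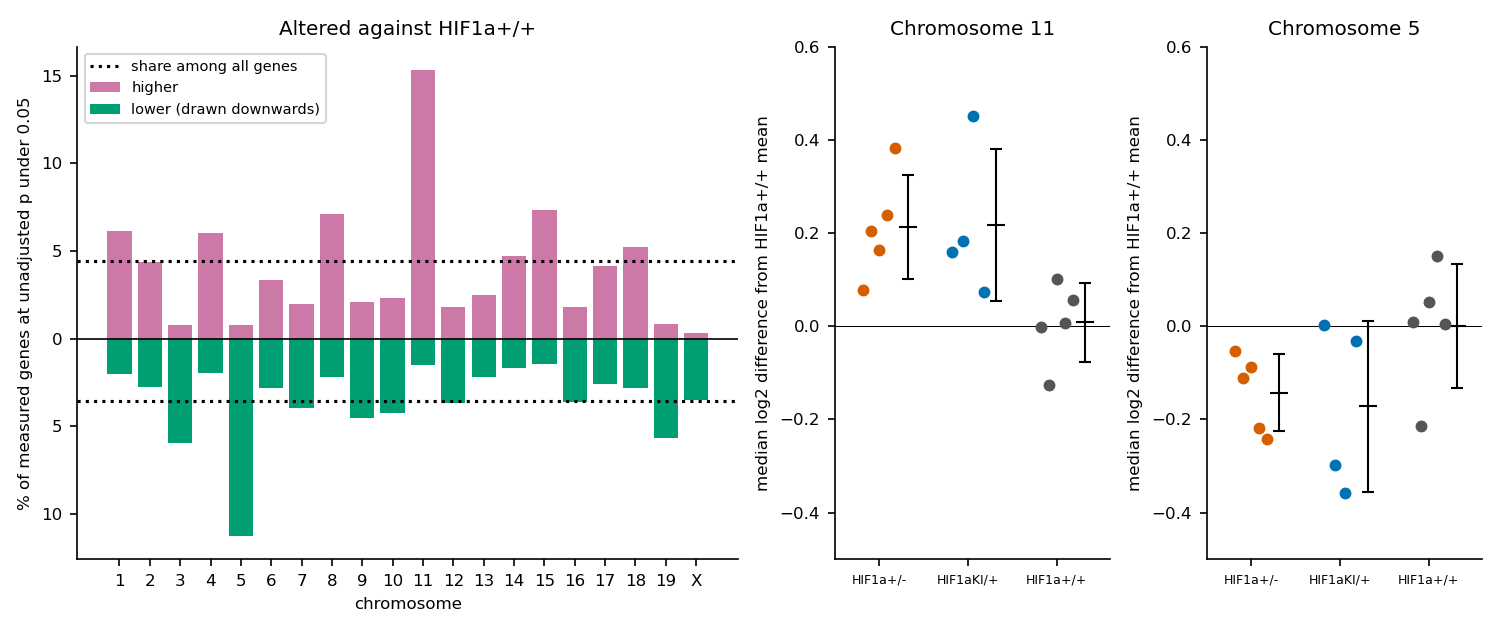
Left, the share of the measured genes of each chromosome that were higher (upwards) or lower (downwards) in altered than in HIF1a+/+ tumours at an unadjusted p under 0.05, with dotted lines at the shares among all genes (4.44% and 3.55%). Right, for chromosomes 11 and 5, each tumour's median log2 difference from the HIF1a+/+ mean over genes above background (points) with the mean and SD of each genotype. Chromosome 11 reaches 15.3% higher and chromosome 5 reaches 11.2% lower.

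Genes were next read in groups, by lists that name pathways and cell types. Counts at an unadjusted p under 0.05 are to be read beside 4.44% of all genes higher and 3.55% lower, and medians beside -0.00268 over all genes. Counts of members higher or lower follow the pooled difference, and some of these members had opposite signs in the 2 altered genotypes. Many of these counts and medians moved when 1 of the 14 arrays was left out, and values from those fits are given beside them. The hypoxia and glycolysis lists, which hold known targets of HIF-1, had medians near 0. Of 24 hypoxia-induced genes outside glycolysis 11 were higher and 13 lower, with a median of -0.05 (-0.15 without HIF1aKI/+ replicate 3, 0.00076 without HIF1a+/+ replicate 3). Lox, a collagen-crosslinking enzyme, differed by -1.63 and Jmjd6, a hydroxylase, by 0.45, both at an unadjusted p under 0.05, and each count of 1 was 0 to 1 over the fits. Vegfa, the vascular growth factor, averaged 6.59 ± 0.64 in altered tumours (SD, n = 9) and 6.02 ± 0.19 in HIF1a+/+ tumours (SD, n = 5), a difference of 0.57, or 0.29 with probe sets averaged. Egln3, a prolyl hydroxylase that marks HIF for destruction, differed by -0.42, or -0.24 without HIF1a+/+ replicate 2 and -0.64 without replicate 5. Of 18 glycolytic genes 14 were lower, 11 of them in both genotypes, and 4 higher. The median was -0.11 (-0.25 without HIF1a+/+ replicate 5, -0.055 without replicate 2). In limma 0 reached an unadjusted p of 0.05, and 3 of the lower did without HIF1a+/+ replicate 5. The enzyme genes Pkm, Aldoa and Pgam1 and the glucose transporter gene Slc2a3 differed by -0.22, -0.35, -0.22 and -0.49.

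Genes of supporting tissue were mostly lower in altered tumours. Of 22 fibroblast and matrix genes 18 were lower, 9 of them at an unadjusted p under 0.05, with a median of -0.74. Beside the collagens named above these included Loxl1, an elastin-crosslinking enzyme (-1.50). The count of 9 was 5 without HIF1a+/+ replicate 2 and 14 without HIF1a+/+ replicate 3, and 5 with array weights. The median was -0.48 without HIF1a+/+ replicate 2. All 7 measured adipocyte genes were lower, with a median of -1.09 and 2 at an unadjusted p under 0.05, a count that was 4 without HIF1a+/+ replicate 1 or 4 and 1 without any of 7 other tumours, HIF1a+/- replicates 1 to 4, HIF1aKI/+ replicate 3 and HIF1a+/+ replicates 3 and 5. Adipoq, the fat hormone adiponectin, lay at 2.02 to 2.47 in altered tumours and read 2.03, 4.00, 6.57, 2.03 and 4.13 in HIF1a+/+ tumours, where replicate 3 alone was above background. Retn, the fat hormone resistin, differed by -2.54, or -1.39 without HIF1a+/+ replicate 3. Endothelial genes gave 11 lower and 6 higher of 17, with 0 at an unadjusted p under 0.05. In bulk tumours fewer cells of a type and less RNA per cell cannot be told apart.

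Macrophage genes, the list that holds Stab1, were lower for 20 of 23 members, 14 of them in both genotypes. At an unadjusted p under 0.05, 6 were lower, and the median was -0.25. Cd163, a haemoglobin scavenger receptor, was at 2.05 to 2.25 in all 9 altered tumours and read 2.15, 8.76, 5.36, 7.27 and 2.22 in HIF1a+/+ tumours. It was thus at background in every altered tumour and in 2 of the HIF1a+/+ tumours (difference -2.99, adjusted p = 0.520). Cd14, a co-receptor for bacterial lipopolysaccharide, differed by -2.04 and Mrc1, the mannose receptor, by -1.34. Csf1r and Cd68 showed smaller differences. Csf1r averaged 13.07 in altered and 13.40 in HIF1a+/+ tumours. Cd68 averaged 11.37 in altered and 11.18 in HIF1a+/+ tumours, and so went against the 20 lower members. The summed level of the 23 genes, in which the brightest weigh most, was 15.61 to 16.43 in altered tumours. In HIF1a+/+ tumours it was 15.64 to 16.59, both on the log2 scale. The part of macrophage number in the Stab1 result was not tested. The count of 6 was 3 without any of HIF1a+/- replicates 1, 2 or 5, HIF1aKI/+ replicate 4 or HIF1a+/+ replicates 2 or 3, and also with a Y-linked covariate or with genes above background only. The median was -0.47 without HIF1a+/+ replicate 1 and -0.083 without HIF1a+/+ replicate 5.

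Thymic epithelial genes went the other way. Of 17 measured, 15 were higher, 11 of them in both genotypes and 7 at an unadjusted p under 0.05. The median of 0.68 (0.44 in HIF1a+/- and 1.11 in HIF1aKI/+ tumours) was 1.06 without HIF1a+/+ replicate 1. Krt8, a keratin of the thymic cortex, read 7.995, 10.56, 11.53, 10.17 and 10.25 in HIF1a+/- and 11.65, 11.33, 9.59 and 10.87 in HIF1aKI/+ tumours, against 10.68, 9.94, 3.09, 2.04 and 6.62 in HIF1a+/+ tumours. All altered tumours expressed it, while 2 of the HIF1a+/+ tumours lay within their range and 2 at background. Its difference was 3.96 ± 1.32 (SE, adjusted p = 0.555), and its keratin partner Krt18 and the medullary keratin Krt5 differed by 3.86 and 2.41. The summed level of the list was 10.63 to 12.92 in altered and 9.95 to 12.33 in HIF1a+/+ tumours, and 8 of its 17 members were at background in both groups. Lamb3, Jup and Ccl25 were higher in the same comparison, and the part of residual epithelium in their values was not tested.

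Antigen presentation and interferon genes were also mostly higher. Of 12 dendritic cell and MHC class II genes 11 were higher, 4 of them at an unadjusted p under 0.05 (median 0.56): Cst3, cystatin C (0.59), Cd74, the invariant chain (0.97), H2-Ab1 (0.52) and the integrin Itgax (1.74). That count was 0 without HIF1a+/+ replicate 3 or 4 and 7 without HIF1a+/+ replicate 2. It was 1 or 2 without any of HIF1a+/- replicates 2 to 5 or HIF1aKI/+ replicates 1 and 3. Without HIF1a+/+ replicate 3 Itgax differed by 0.97 and Cd74 by 0.50, and without HIF1a+/+ replicate 4 Cst3 differed by 0.38 and H2-Ab1 by 0.33. Of 27 interferon-induced genes 25 were higher, 23 of them in both genotypes, with a median of 0.59, but only 2 had an unadjusted p under 0.05. These were the GTPase Igtp (0.81) and the signalling factor Irf9 (1.02), and Irgm1, a GTPase, differed by 0.54. Bst2, a tetherin of virus particles, differed by 1.09, or 0.40 without HIF1a+/+ replicate 5. The interferon count was 6 without HIF1a+/- replicate 5 and 4 without HIF1a+/+ replicate 2. It was 1 without any of HIF1a+/- replicates 1, 2 and 4, HIF1aKI/+ replicates 1 and 4 or HIF1a+/+ replicates 3 and 4.

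**Figure D5:**
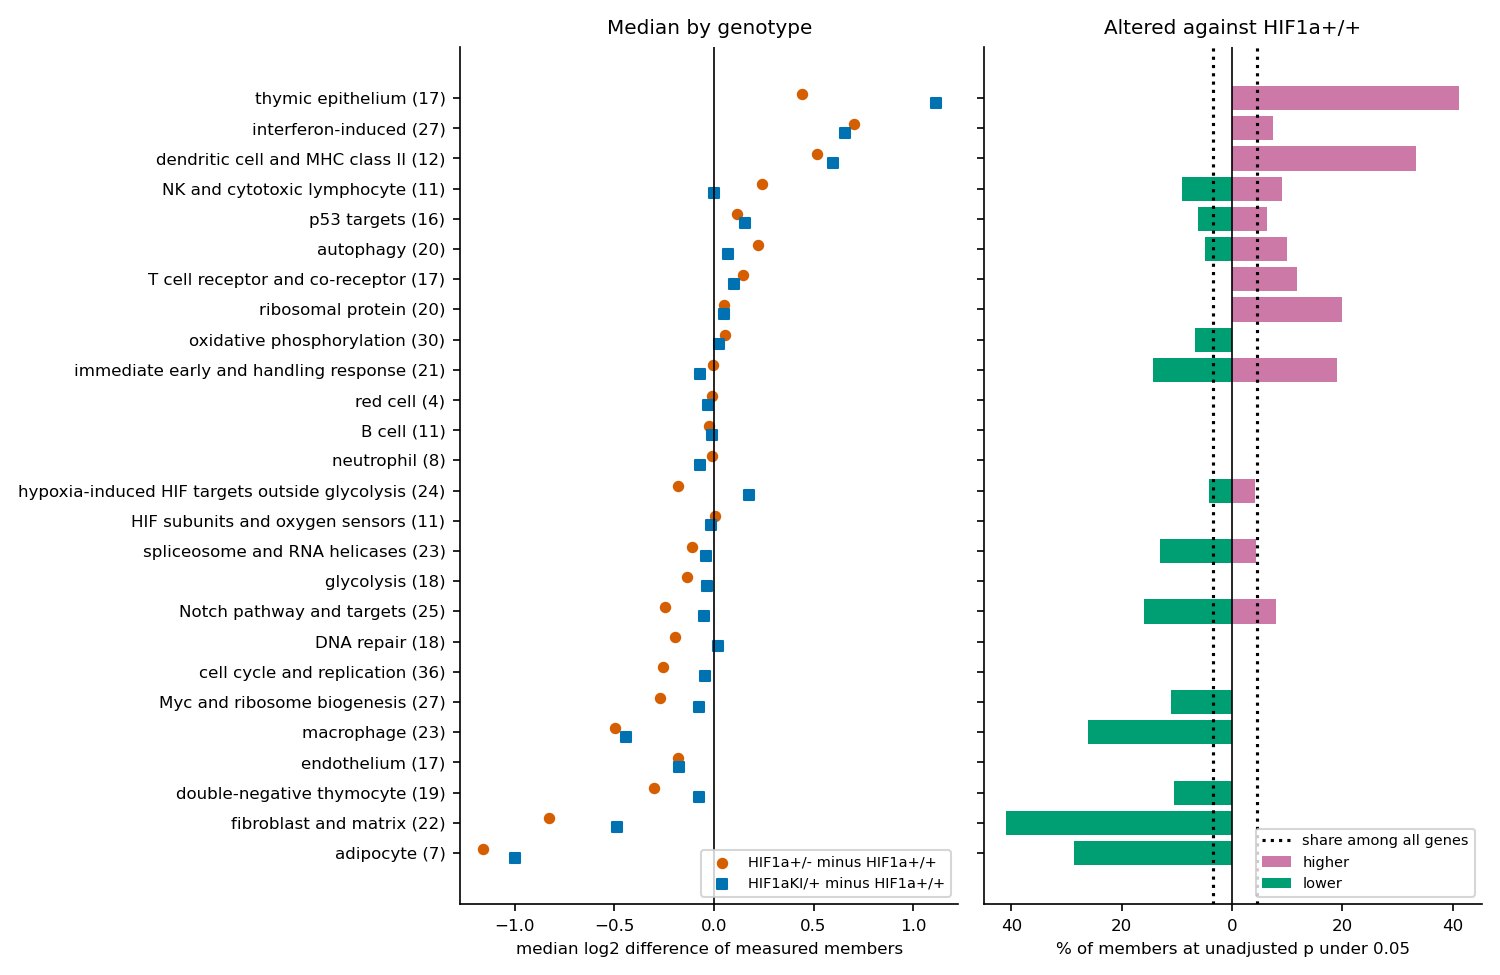
Left, the median log2 difference from HIF1a+/+ tumours over the measured members of each list (number in brackets) for HIF1a+/- (circles) and HIF1aKI/+ tumours (squares). Right, the share of members at an unadjusted p under 0.05 that were higher (right of 0) or lower (left of 0) in altered tumours, with dotted lines at 4.44% and 3.55% of all genes. Thymic epithelium has 7 of 17 members higher and fibroblast and matrix 9 of 22 lower.

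In the T lineage, 12 of 17 T cell receptor and co-receptor genes were higher, 2 at an unadjusted p under 0.05 (4 without HIF1a+/+ replicate 5). The median of 0.09 was 0.036 without HIF1a+/+ replicate 1 and 0.19 without replicate 5. Cd8b1, the beta chain of the CD8 co-receptor, differed by 0.92 and Cd28, a co-stimulatory receptor, by 1.21. Of 19 double-negative thymocyte genes 13 were lower, 2 at an unadjusted p under 0.05 (median -0.36). Beside Il2ra the second was Hes1, a Notch-induced repressor (-2.47). Dntt, the terminal transferase, differed by 0.98, or 0.36 without HIF1a+/+ replicate 4. Dtx1, a Notch target, differed by -3.06. Of 25 Notch pathway genes 18 were lower and 7 higher, 4 and 2 of them at an unadjusted p under 0.05. The median of -0.11 was -0.26 without HIF1a+/+ replicate 4. Among these Jag2 and the cyclin Ccnd3 (0.65) were higher. Il2ra and Igf1r, a growth factor receptor, were lower, the second by -1.43 with both group means at background, or -0.72 with probe sets averaged.

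Growth genes had small differences. Of 27 Myc and ribosome biogenesis genes 22 were lower, 17 of them in both genotypes, with a median of -0.23. The 3 lower at an unadjusted p under 0.05 were the helicase Ddx21 (-0.27, or -0.54 with probe sets averaged), Nolc1 (-0.66) and the RNA polymerase I subunit Polr1b (-0.90). The median was -0.093 without HIF1a+/+ replicate 1 and -0.095 without HIF1a+/- replicate 5. Of 36 cell cycle and replication genes 27 were lower, 19 of them in both genotypes, with a median of -0.16 (-0.082 without HIF1a+/- replicate 5). None reached an unadjusted p of 0.05 in limma, while 3 of the lower did without HIF1a+/- replicate 1 and 3 with centred arrays, with Mki67 at -0.35 and the kinase Plk1 at -0.76. Ribosomal protein genes were higher for 17 of 20 members, 13 of them in both genotypes and 4 at an unadjusted p under 0.05. The amounts were small (median 0.05, Rpl19 by 0.24). That count of 4 was 1 with centred arrays and 2 without HIF1a+/+ replicate 1 or 3, and the median was 0.006 with centred arrays. Spliceosome genes were lower for 18 of 23 members, 13 of them in both genotypes. At an unadjusted p under 0.05, 3 were lower and 1 higher (2 to 4 lower and 0 to 1 higher over the fits). Their median was -0.09 (-0.012 with probe sets averaged), with U2af2 at -0.33 and Srsf2 at 0.34. Srsf2 turned sign when its probe sets were averaged, because all its probe sets but the brightest were lower. Oxidative phosphorylation genes were split at 19 higher and 11 lower of 30, with 0 of the higher and 2 of the lower at an unadjusted p under 0.05 (1 to 3 of the lower over the fits). These were the complex III subunit Uqcrc2 at -0.22 and the complex IV subunit Cox5a at -0.27.

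Stress and damage genes were mixed. Of 16 p53 target genes 11 were higher and 5 lower, with 1 of each reaching p of 0.05 before adjustment: Btg2, an antiproliferative factor (0.86, or 0.50 without HIF1a+/+ replicate 4), and the nuclease Aen (-0.60, or -0.30 with probe sets averaged). The higher count was 0 to 3 over the fits, with 3 without HIF1a+/+ replicate 5 and 0 without any of HIF1a+/- replicates 2 and 3, HIF1aKI/+ replicates 3 and 4 or HIF1a+/+ replicates 3 and 4. Of 21 immediate early and tissue-handling genes 4 of the higher and 3 of the lower had p under 0.05 before adjustment. The higher count was 0 without HIF1a+/+ replicate 3, 5 without HIF1a+/+ replicate 2 and 1 to 3 in each other fit that left out an array, and the lower count was 2 to 4. The transcription factor genes Fos and Klf4 (-2.07) were among the lower, and the heat-shock genes Hspa1b (2.49) and Dnajb1 (0.30) among the higher. Of 20 autophagy genes 14 were higher, with Gabarap at 0.45 and Gabarapl2 at 0.37, both at an unadjusted p under 0.05. Wipi1 was the 1 lower gene at that p (-0.23), with both group means at background (2.07 in altered and 2.30 in HIF1a+/+ tumours). These counts were 1 to 3 higher and 0 to 2 lower over the fits. Among NK and cytotoxic genes the chemokine Ccl5 differed by 2.88 and the receptor Cd160 by -2.04. DNA repair, B cell, neutrophil and red cell lists each had 0 members at an unadjusted p under 0.05, and up to 2 DNA repair genes and 1 B cell gene in a direction reached it with an array left out.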

How the data were processed

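Total RNA of 14 thymic lymphomas was measured on 1 Affymetrix array each. The values are the log2 probe set summaries deposited by the authors, and per the submitters' processing notes GCRMA and Partek were used, with no versions given. GCRMA corrects for background by probe sequence, normalizes and summarises, which compresses values without signal to a narrow low mode. No build is given in the sources used here, and scanner intensities were not used. Of 18264 probe sets 16602 name 1 gene, 603 several and 1059 none. The probe set of highest mean stood for a gene, which gave 10254 genes (3999 have several probe sets).

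Groups follow the sample titles. The pooled group of 9 was set against the 5 of HIF1a+/+ tumours by limma (version 3.58.1, R version 4.3.3) with lmFit and eBayes on 12 residual degrees of freedom, two-sided, with Benjamini-Hochberg adjustment over all genes. A fit with a mean per genotype gave the differences of each genotype and between them. The titles call the samples biological replicates, and what shared litter, day or batch they have is not given. The procedure was tested on simulated data. The members, the 26 lists and the rule for named genes were chosen with earlier results of these data known, so no list was tested as a set. The rule takes 12 genes per direction as given above, Hif1a, the genes without overlap and up to 4 members of each list by smallest unadjusted p. Csf1r and Cd68 are named as macrophage markers, from a set that also holds Adgre1, Cd163, Mrc1 and Stab1. The comparison of chromosomes was added after the values were seen. Replicate numbers were not used to pair the arrays. Same-numbered arrays of different genotypes had residual correlations of -0.0872 to 0.0754 over 13 pairs. Pairs of unlike number were not examined, so these values do not decide whether a number marks a shared litter, day or batch. Alternatives were another contrast, a level filter, quantile normalization, centring, trend and robust moderation, array weights, 2 treatments of multiple probe sets, a replicate block, a Y-linked covariate, an adjusted p of 0.1 and each array left out.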

Additional observations from a re-analysis of the deposited data

Results flagged for a closer look

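Each group of 4 or 5 tumours was searched for a tumour far from the others, over 339 gene and group pairs, and 29 stood out by the gap to the nearest other tumour relative to the whole range. Chance gives about 1 in 20 such groups.

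Several of these values belong to genes without overlap between altered and HIF1a+/+ tumours, or to the named genes P3h4 and Il2ra, whose groups overlapped. HIF1aKI/+ replicate 4 read 8.953 for Mapk7, where the others of its group lay at 7.851 to 7.974, and 1.848 for Hopx (others 3.388 to 3.618). HIF1a+/- replicate 2 read 11.3 for Dusp19 (others 10.65 to 10.84). HIF1a+/- replicate 4 read 2.092 for Slc22a21 (others 4.065 to 4.738) and 8.145 for P3h4 (others 10.29 to 11.05). In the HIF1a+/+ group, replicate 1 read 10.11 for Stat5b (others 10.47 to 10.6) and replicate 4 read 8.977 for Ciao2b (others 9.896 to 10.07). For Il2ra, HIF1a+/- replicate 1 read 6.29 (others 2.122 to 3.245).

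HIF1aKI/+ replicate 4 stood apart for 7 genes in all. Beside Mapk7 and Hopx these were Cd8b1 at 12.27 (others 11.64 to 11.68), Mrc1 at 7.479 (others 9.417 to 9.587), Prpf31, a splicing factor, at 9.955 (others 10.67 to 10.78), Retn at 4.432 and Adipoq at 2.469, of which the last 2 lay below the background boundary. Without this tumour the Mapk7 difference was 1.01 and the Mrc1 difference -1.18, against 1.12 and -1.34 with it.

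Among the other measured genes, HIF1aKI/+ replicate 1 was high for Gabarap at 12.06 (others 11.84 to 11.87) and HIF1aKI/+ replicate 5 low for Rpl19 at 14.42 (others 14.74 to 14.77). In the HIF1a+/+ group, replicate 1 was low for Cd28 at 8.717 (others 10.4 to 10.93), replicate 5 for Mki67 at 12.57 (others 13.05 to 13.22) and replicate 4 for Plk1 at 9.047 (others 9.891 to 10.16).

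The remaining tumours belong to genes or probe sets whose other values in the group lay at background. In HIF1a+/- tumours these were Igf1r at 2.188 in replicate 4, Retn at 2.194 in replicate 3, Rpl39l at 2.32 in replicate 2 and the fourth Hif1a probe set at 3.152 in replicate 5. In HIF1aKI/+ tumours they were Il2ra at 3.223 in replicate 5 and, in replicate 1, Apobec2 at 2.058, Rpl39l at 2.097, Svep1 at 2.925 and the fourth Hif1a probe set at 2.111. In HIF1a+/+ replicate 2 they were Acot4 at 2.542 and Gm20362 at 4.854, which is just above the background boundary (others 2.531 to 2.863).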

How the results depend on the processing

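Stab1 kept its direction under every alternative run. At an adjusted p of 0.05, 0 genes were lower with the mean of the genotype means, 0 with array weights and 0 with all probe sets tested singly. With probe sets averaged per gene 2 were lower, Stab1 and Frmd4b. With each array left out, 0 to 4 genes were lower and 0 to 2 higher. The 4 and the 2 came without HIF1a+/+ replicate 5, when Stab1, Il2ra, Igf1r (-1.80) and Svep1 (-1.27) were lower and P3h4 (4.95) was among the higher, each at adjusted p = 0.0362. Between HIF1a+/- and HIF1aKI/+ tumours the count was 0 to 1, and 1 came without HIF1aKI/+ replicate 3 or HIF1a+/+ replicate 5. Counts at an unadjusted p under 0.05 ran from 343 to 510 higher and 274 to 447 lower with each array left out. Genes above background gave 219 lower, but that setting drops the 30.1% of genes at background. Probe sets tested singly gave 562 lower, out of 16602 probe sets and not 10254 genes. Among the 16602 single probe sets 23 were lower without overlap. Genes without overlap numbered 7 lower among genes above background, and 9 higher and 23 lower with centred arrays. With each array left out they numbered 15 to 53 higher and 16 to 55 lower, since fewer tumours have to be separated. The first Hif1a probe set differed by -0.39 and the third by -0.97 with the mean of the genotype means, which was not tested by permutation. With centred arrays the first differed by -0.40 (exact permutation p = 0.0460). The first lay between -0.42 and -0.27 with each array left out, and passed without HIF1a+/- replicate 4 or 5. With probe sets averaged per gene, Prpf31 differed by 0.063 and Srsf2 by -0.012, which turned their signs. The dimmer Prpf31 probe set differed by 0.47, against -0.35 for the brightest. The dimmer Srsf2 probe sets differed by -0.12, -0.11 and -0.15, the last at background, against 0.34 for the brightest. Why probe sets of the same gene differed was not tested. Replicate numbers were not used as pairs in the main fit. A fit with the replicate block gave 0 genes higher and 1 lower, with 469 and 375 at an unadjusted p under 0.05. At an adjusted p of 0.1, 0 were higher and 1 lower. The number of arrays and the background mode limit what could be seen for low genes.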

Other observations

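The 1662 probe sets that name no gene or several were not part of the gene tests. In a fit over all 18264 probe sets 0 of them passed an adjusted p of 0.05, while 7.04% had an unadjusted p under 0.05, and 3 (0.181%) had no overlap between altered and HIF1a+/+ tumours.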
